A study of Homo sapiens with 17 samples.

Results

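The CCR4-NOT complex is the main cytoplasmic machine that shortens poly(A) tails, and 10 genes of its subunits and of its associated ubiquitin ligase were followed here at the level of their own mRNAs. The genes were taken as a list by symbol (CNOT1, CNOT2, CNOT3, CNOT4, CNOT6, CNOT6L, CNOT7, CNOT8, CNOT10 and CNOT11), and all 10 were present among the 19222 genes of the 1 h table and among the 9982 genes of the 2 h tables. The data came from TimeLapse sequencing (TL-seq) of HEK-293T cells, a wild-type line of human embryonic kidney cells, in which 4-thiouridine (s4U) taken up by the cells marks newly made RNA and is read after chemical recoding as T-to-C conversions. Emetine, an alkaloid that blocks the translocation step of translation elongation, was given at 1.8 µM for 1 h together with 500 µM s4U (3 libraries), beside 3 libraries from cells with 500 µM s4U alone. Each treatment also had 1 library without s4U. The 2 h experiment had 3 libraries each of untreated cells, cells with 1.8 µM emetine and cells with 240 µM emetine, all labeled with 250 µM s4U, and entered here only as the authors' mean over all 9 libraries. No label states whether the replicates came from separate cultures, so the p-values measure the spread between these libraries, which may be technical.

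In human cells, CNOT1 is the scaffold on which the complex is built. CNOT2 and CNOT3 form a module at its C-terminal part, CNOT10 and CNOT11 form a module at its N-terminal part, and the catalytic subunits dock between them. Catalysis is shared by nucleases of the EEP family (CNOT6 or CNOT6L) and of the DEDD family (CNOT7 or CNOT8), and the paralogs of each pair take each other's place in the complex. CNOT4 is a RING-type E3 ubiquitin ligase that, in human cells, is not a stable subunit. Removal of the poly(A) tail by this complex is commonly the step that commits an mRNA to decapping and decay, and it is coupled to the speed at which ribosomes move along the mRNA.

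The 8 libraries of the 1 h experiment held between 22246279 and 40018063 reads given to a gene. The members had from 439 reads (CNOT6L) to 10933 reads (CNOT1) in a library with s4U, and no read marked as ambiguous between genes named any of them. Emetine replicate 3 stood apart from the rest: its deviations from the group mean had an SD of 0.27 on the log2 scale over 13068 genes, against 0.11 to 0.17 in the other libraries with s4U, and rose with transcript length (Spearman's rho 0.72, a description over genes that share a library). The 5 markers of HEK-293T cells fixed for this check (VIM, NEFL, NEFM, PAX2, LHX1) all passed the count filter, and 0 of 5 markers of blood, liver and islet cells did.

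The paralogous nucleases are similar enough that the identity of their reads matters for every value given for them. The coding sequences of CNOT6 (1671 bases) and CNOT6L (1665 bases) were 72.3% identical, and the longest run of identical bases was 20. There were 3 such runs, at coding positions 940 to 959 and 961 to 980 in both genes, and at 1078 to 1097 in CNOT6 and 1075 to 1094 in CNOT6L. The first pair of runs is separated by 1 differing base, so that 41 bases (940 to 980) hold a single difference. The runs are shown in capitals, with the bases around them in lower case, because they are the longest that the coding sequences share (coding positions 910 to 1127 of CNOT6 and 910 to 1124 of CNOT6L, GENCODE 44 transcripts). The UTRs were not compared.
CNOT6: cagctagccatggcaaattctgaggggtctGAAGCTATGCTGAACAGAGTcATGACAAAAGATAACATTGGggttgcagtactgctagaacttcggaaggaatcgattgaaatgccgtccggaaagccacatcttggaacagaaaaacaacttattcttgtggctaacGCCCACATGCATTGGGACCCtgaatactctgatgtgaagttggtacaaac
CNOT6L: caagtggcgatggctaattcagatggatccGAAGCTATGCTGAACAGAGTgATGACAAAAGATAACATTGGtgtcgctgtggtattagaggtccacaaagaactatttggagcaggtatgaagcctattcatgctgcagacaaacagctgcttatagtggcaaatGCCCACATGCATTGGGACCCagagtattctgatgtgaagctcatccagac
Outside the capitals the genes differ at several positions, and a read that covers such a position carries the base of one gene there. The mapping tolerated T-to-C changes, and a T in one gene opposite a C in the other does not by itself tell their reads apart. CNOT7 and CNOT8 were 69.5% identical in coding sequence, and their longest shared run was 20 bases, within 26 bases that hold 1 difference. Processed pseudogenes of CNOT4, CNOT6L and CNOT7 are annotated, and the table gave 0 reads to each of them. Reads that the authors' mapping could have placed on a pseudogene were not traced here.

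In untreated cells the subunit mRNAs differed widely in level. Levels are given as CPM, the counts scaled to library size, and, between genes, as CPM per kb of the canonical transcript. CNOT3 mRNA was the most abundant per length, with 49.8, 51.0 and 52.1 CPM per kb in the 3 untreated libraries (mean 51.0 ± 1.19, SD, n = 3). CNOT11 followed with 46.5 ± 0.952 CPM per kb and the scaffold CNOT1 with 33.8 ± 0.556 CPM per kb. The order then ran through CNOT8 (27.3 ± 0.984 CPM per kb), CNOT10 (25.8 ± 0.413 CPM per kb) and CNOT2 (20.3 ± 2.01 CPM per kb). CNOT7 (14.1 ± 0.175 CPM per kb) and CNOT6 (13.9 ± 0.508 CPM per kb) overlapped and were the neighbours in this order whose ranges could not be separated. CNOT4 (7.69 ± 0.652 CPM per kb) and CNOT6L (2.40 ± 0.206 CPM per kb) were the lowest of the family.

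Within both nuclease pairs the paralogs differed in level, but only for CNOT6 and CNOT6L in the same direction by reads and per length. The reads of CNOT6L were 0.243 ± 0.0155 of those of CNOT6 in untreated cells, or 0.173 ± 0.0110 per length (SD, n = 3). The reads of CNOT8 were 0.688 ± 0.0165 of those of CNOT7, but per length CNOT8 exceeded CNOT7 by a ratio of 1.94 ± 0.0466, because the annotated CNOT7 transcript is longer (6890 against 2446 bases). The direction of the CNOT8 to CNOT7 comparison therefore rests on the transcript used for length.

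The mRNAs also differed in turnover, and CNOT4 had the highest fraction new. The fraction new is the share of a gene's reads made during the hour of labeling, estimated from the number of T-to-C conversions per read. CNOT4 had fractions new of 36.1%, 51.6% and 50.2% in the untreated libraries (46.0% ± 8.61, SD, n = 3), which placed it at percentile 93.9 of all genes tested. Under the assumption of a steady state, these values correspond to half-lives of 93.0, 57.3 and 59.6 min. Next came the nucleases CNOT8 (23.4% ± 4.07) and CNOT6L (22.3% ± 5.87), whose ranges overlapped. CNOT4 exceeded CNOT8 in 3 of 3 untreated libraries, by 22.5 ± 5.65 percentage points.

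The remaining subunits formed a slower group. CNOT2 had a fraction new of 15.4% ± 2.47, CNOT3 of 13.1% ± 3.24 and CNOT6 of 12.5% ± 2.08. CNOT7 (9.92% ± 0.573), CNOT11 (9.64% ± 3.34), CNOT10 (9.03% ± 3.81) and the scaffold CNOT1 (8.61% ± 1.14) were the lowest, and each neighbour from CNOT2 down to CNOT1 overlapped with the next. The half-life of CNOT1 under the same assumption was 468 ± 64.9 min. The medians over all genes were 9.26%, 12.3% and 14.7% in the 3 untreated libraries, so that the libraries themselves differed, and the members' medians moved with them (10.1%, 13.0% and 15.4%).

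Paralogs of a pair differed in turnover as well as in level. The fraction new of CNOT6L was above that of CNOT6 in 6 of 6 libraries with s4U, by 8.56 ± 3.11 percentage points. That of CNOT8 was above that of CNOT7 in 6 of 6 libraries, by 11.0 ± 4.00 percentage points. These differences within libraries were not tested.

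**Figure D1:**
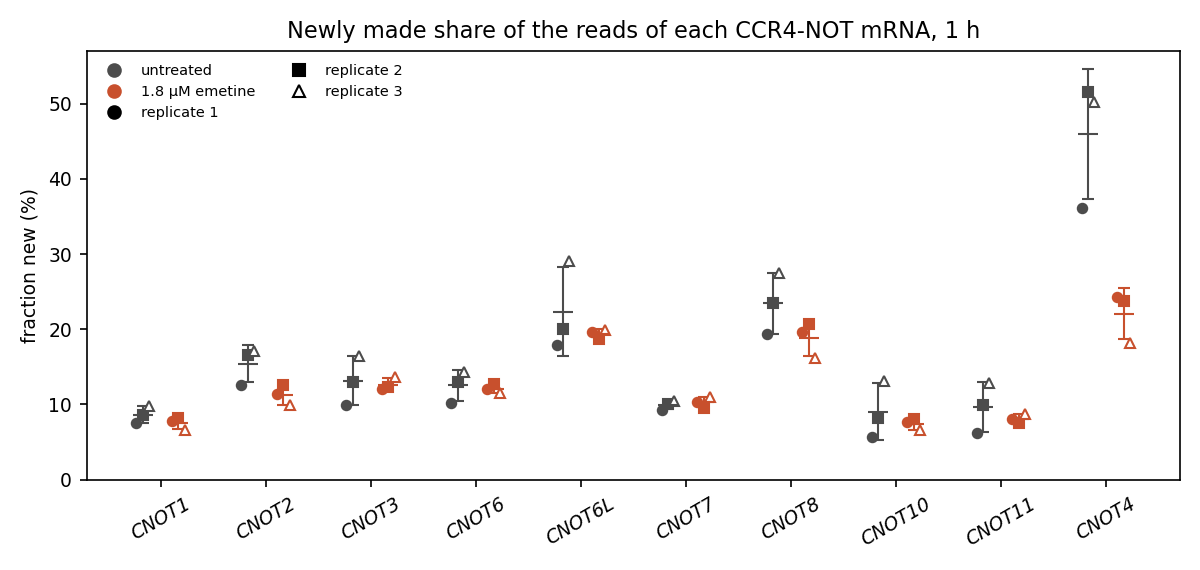
Fraction new (percent of a gene's reads made during 1 h of labeling) of each of the 10 genes in the 3 untreated (grey) and 3 emetine (orange) libraries. Points are libraries, horizontal marks are means and bars are SD. CNOT4 lies between 36.1% and 51.6% in untreated cells and between 18.2% and 24.3% with emetine.

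The comparison of emetine with untreated cells asked which of these mRNAs changed in level or in the share of newly made reads. CNOT4 was the member that passed the tests: its level rose, its fraction new fell and its older, unlabeled reads rose. The other 9 members did not pass in level, fraction new, labeled reads or unlabeled reads, which does not show that they were unaffected. Over all genes, 2.64% were called higher in level (edgeR, adjusted p under 0.05) and 0.0436% lower, and 1 of 10 members was called higher and 0 lower. At an unadjusted p under 0.05, 2 members were higher (CNOT4 and CNOT6L) and 0 lower, against 14.9% and 6.95% of all genes, and DESeq2 also called CNOT4. For the fraction new, 4.83% of all genes were called lower and 0.214% higher (limma), and 1 of 10 members was called lower and 0 higher, also 1 lower and 0 higher at an unadjusted p under 0.05 (15.4% and 1.15% of all genes). Set beside this background, 1 gene of 10 is not a result about the complex as a whole. The median log2 fold change of the members was 0.11, against 0.03 over all genes tested, and the median change in the logit of the fraction new was -0.15, against -0.16.

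CNOT4 is encoded on the minus strand of chromosome 7 (GRCh38, 135361795 to 135510145). Its level was 25.3, 26.6 and 29.8 CPM in the untreated libraries and 40.0, 39.6 and 51.0 CPM with emetine. The groups did not overlap, and the highest value was that of emetine replicate 3. The share of all genes whose levels did not overlap was not counted, so this has no background beside it. The means were 27.2 ± 2.31 and 43.5 ± 6.43 CPM (SD, n = 3 each), a log2 fold change of 0.68 (SE 0.126, adjusted p = 0.0302, edgeR's quasi-likelihood test with Benjamini-Hochberg adjustment). Without emetine replicate 3 the log2 fold change was 0.56 (adjusted p = 0.000447). The call was lost when any of the 3 untreated libraries or emetine replicate 1 was left out, with adjusted p from 0.0542 to 0.177, while the log2 fold change stayed between 0.56 and 0.75 in all 6 such fits. It was also lost with spike-in scaling (1.375, adjusted p = 0.139), which moved the median of all genes by 0.68, and with the replicate number as a block (0.67, adjusted p = 0.0510).

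The fraction new of CNOT4 fell with emetine. It was 24.3%, 23.8% and 18.2% in the emetine libraries (22.1% ± 3.38, SD, n = 3), below each of the 3 untreated values. The change in the logit was -1.10 (SE 0.221, adjusted p = 0.000564, limma), and it passed the threshold under each of the 15 alternatives tried, with values from -1.31 to -0.91 and adjusted p from 1.35e-05 to 0.0440. The counting error of each library's estimate was small beside this difference, at 1.11 to 2.14 percentage points. Groups of 3 libraries that do not overlap in this direction were found for 16.8% of all genes tested, and among the members for CNOT4 and CNOT2. In the opposite direction they were found for 2.2% of all genes and for 0 members.

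The same difference could be read from the conversions themselves. Of the 927 CNOT4 reads of untreated replicate 2, 442 had no conversion, 86 had 1, 89 had 2 and 310 had 3 or more. Of the 1587 reads of emetine replicate 2, 1190 had no conversion, 74 had 1, 72 had 2 and 251 had 3 or more. Reads with at least 2 conversions made up 37.6% ± 6.37 of CNOT4 reads in untreated cells and 17.6% ± 2.93 with emetine (SD, n = 3 each). In the libraries without s4U, 0 of 751 untreated reads had 2 or more, which allows a share of up to 0.399%, and 1 of 1446 emetine reads had 2. Such shares also depend on the number of T positions in a read, which the fraction new takes into account. With s4U, CNOT4 reads held 41.2, 48.4 and 37.7 T positions on average in untreated replicates 1 to 3. With emetine they held 36.3, 43.9 and 36.3.

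Dividing the reads by the fraction new placed the rise of CNOT4 in its older reads. Unlabeled reads amounted to 16.2, 12.9 and 14.8 CPM in untreated cells and to 30.3, 30.2 and 41.7 CPM with emetine. This was a log2 fold change of 1.18 (SE 0.157, adjusted p = 0.00332, limma on log2(CPM + 0.5)), in a comparison in which 7.3% of all genes were called higher and 0.0929% lower. CNOT4 was the 1 member called there, 2 members (CNOT4 and CNOT6L) were higher at an unadjusted p under 0.05 and 0 lower, against 19.4% and 7.06% of all genes. Without emetine replicate 3 the log2 fold change of CNOT4 was 1.03 (adjusted p = 5.84e-05). Labeled reads amounted to 9.13, 13.7 and 15.0 CPM in untreated cells and to 9.71, 9.41 and 9.26 CPM with emetine. These groups overlapped, and the log2 fold change of -0.37 (SE 0.242, adjusted p = 0.580) did not pass. Without untreated replicate 1 it was -0.57 with an adjusted p of 0.0286, in a fit that called 1733 genes lower, against 68 with all libraries, and that moved the median of all genes by -0.15. The adjusted p lay within a range of 0.0286 to 0.993 over the alternatives. Of all genes, 0.26% were called higher and 0.632% lower in labeled reads, and 0 of 10 members in either direction, also at an unadjusted p under 0.05 (limma), where 1.64% of all genes were higher and 10.6% lower. Both quantities derive from the same level and fraction new and are not independent of them.

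**Figure D2:**
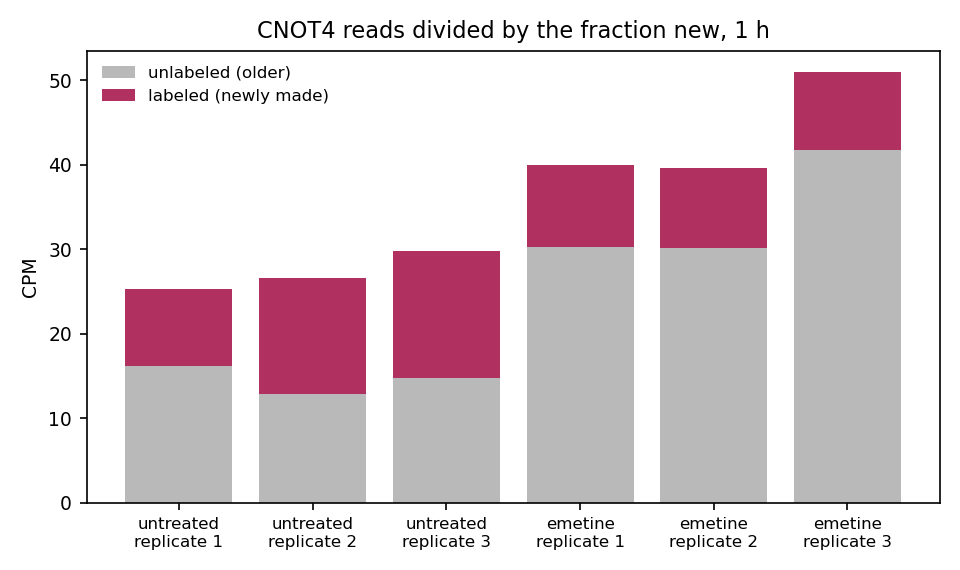
CNOT4 reads (CPM) in each of the 6 libraries with s4U, divided into unlabeled reads (grey) and labeled reads (red) by the fraction new of that library. Unlabeled reads lie between 12.9 and 16.2 CPM in untreated cells and between 30.2 and 41.7 CPM with emetine.

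The scaffold CNOT1 had levels of 282, 282 and 290 CPM in untreated cells and of 269, 273 and 393 CPM with emetine. The high value was that of emetine replicate 3, and the others lay below the untreated range. The log2 fold change was 0.13 (SE 0.147, adjusted p = 0.597), and without emetine replicate 3 it turned to -0.07 (adjusted p = 0.443). The fraction new of CNOT1 was 7.50%, 8.54% and 9.78% in untreated cells and 7.84%, 8.13% and 6.59% with emetine, a change in the logit of -0.14 (SE 0.216, adjusted p = 0.827).

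Of the module formed by CNOT2 and CNOT3, CNOT2 was the member with the larger difference in turnover. Its fraction new was 12.6%, 16.5% and 17.1% in untreated cells and 11.4%, 12.5% and 9.92% with emetine. The groups did not overlap, although the lowest untreated and the highest emetine value lay next to each other. The change in the logit was -0.35 (SE 0.210, adjusted p = 0.423), and without untreated replicate 1, the library with the lowest fractions new, it was -0.47 and passed (adjusted p = 0.0378). In that fit the median over all genes shifted by -0.15. The level of CNOT2 was 63.3, 57.6 and 51.9 CPM in untreated cells and 61.3, 62.8 and 64.8 CPM with emetine (log2 fold change 0.13, SE 0.0963, adjusted p = 0.432). CNOT3 had 140 to 147 CPM in untreated cells and 145 to 149 CPM with emetine, and its log2 fold change was 0.03 (SE 0.0785). Its fraction new changed by -0.02 in the logit (SE 0.211).

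CNOT6L, the least abundant of the nucleases, measured 19.4, 23.0 and 20.7 CPM in untreated cells and 24.9, 23.5 and 30.9 CPM with emetine. The groups did not overlap, for which the share of all genes was not counted. The log2 fold change of 0.33 (SE 0.131, adjusted p = 0.206) did not pass the edgeR test, and it was 0.20 without emetine replicate 3. With a trend with transcript length and GC content removed from each library, it was 0.04 (adjusted p = 0.772). Its paralog CNOT6 had 85.8, 89.8 and 83.5 CPM in untreated cells and 85.9, 88.9 and 113 CPM with emetine. The log2 fold change of CNOT6 was 0.15 (SE 0.116, adjusted p = 0.436), and 0.02 without emetine replicate 3. The log2 ratio of CNOT6L to CNOT6 reads within a library was -2.15, -1.97 and -2.01 in untreated cells and -1.78, -1.92 and -1.88 with emetine. The ratio was higher in every emetine library than in any untreated one, by 0.18 on average, with p = 0.1 in a two-sided exact permutation test, the smallest value that 3 libraries against 3 can give. In the libraries without s4U the same ratio was -1.82 untreated and -1.87 with emetine.

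CNOT7 had 98.4, 96.3 and 96.3 CPM in untreated cells and 85.6, 92.2 and 91.3 CPM with emetine. All emetine values lay below the untreated ones, for which the share of all genes was also not counted. The log2 fold change of -0.11 (SE 0.0796, adjusted p = 0.400) did not pass the edgeR test. With the same trend removed it was -0.37 and passed (adjusted p = 0.0494). With spike-in scaling it was 0.56, below the shift of 0.68 over all genes, and did not pass (adjusted p = 0.341). CNOT8 had 64.8 to 69.4 CPM in untreated cells and 61.7 to 65.6 CPM with emetine, a log2 fold change of -0.06 (SE 0.0816). The fraction new of CNOT8 was 19.3%, 23.5% and 27.4% in untreated cells and 19.6%, 20.6% and 16.1% with emetine, a change in the logit of -0.27 (SE 0.210, adjusted p = 0.589). The fraction new of CNOT7 stood at 9.30% to 10.4% in untreated cells and at 9.58% to 10.9% with emetine. The log2 ratio of CNOT8 to CNOT7 differed by 0.06 between the groups (p = 0.4, two-sided exact permutation test).

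CNOT10 and CNOT11, which form the N-terminal module, did not pass in level or in fraction new. CNOT10 had 70.1 to 72.4 CPM in untreated cells and 70.4 to 80.6 CPM with emetine (log2 fold change 0.09, SE 0.0857). CNOT11 had 114 to 119 CPM in untreated cells and 110 to 116 CPM with emetine (log2 fold change -0.04, SE 0.0789). Their fractions new differed by -0.16 (SE 0.223) and -0.15 (SE 0.219) in the logit, where the median of all genes was -0.16. The values depended on the untreated libraries: they were -0.38 and -0.37 without untreated replicate 1, and turned to 0.08 and 0.04 without untreated replicate 3. The median of all genes moved in the same directions, to -0.31 and to -0.04 in these fits.

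Whether the rise of deviations with transcript length in emetine replicate 3 by itself affected these levels was not tested. The members with log2 deviations above 0.2 in that library were CNOT1 (0.36), CNOT6 (0.25), CNOT4 (0.23) and CNOT6L (0.23), with transcripts of 8411, 6219, 3538 and 8772 bases. CNOT7, with 6890 bases, deviated by 0.03. The part of this library in the levels of CNOT1, CNOT6, CNOT6L and CNOT4 is given by the values without it above. With the trend with transcript length and GC content removed from each library, their log2 fold changes moved. They went from 0.13 to -0.11 (CNOT1), 0.15 to -0.09 (CNOT6), 0.33 to 0.04 (CNOT6L) and 0.68 to 0.55 (CNOT4). Of these, only CNOT4 was called (adjusted p = 0.0130, edgeR). That fit treats all libraries and includes GC content, so it does not single out emetine replicate 3.

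**Figure D3:**
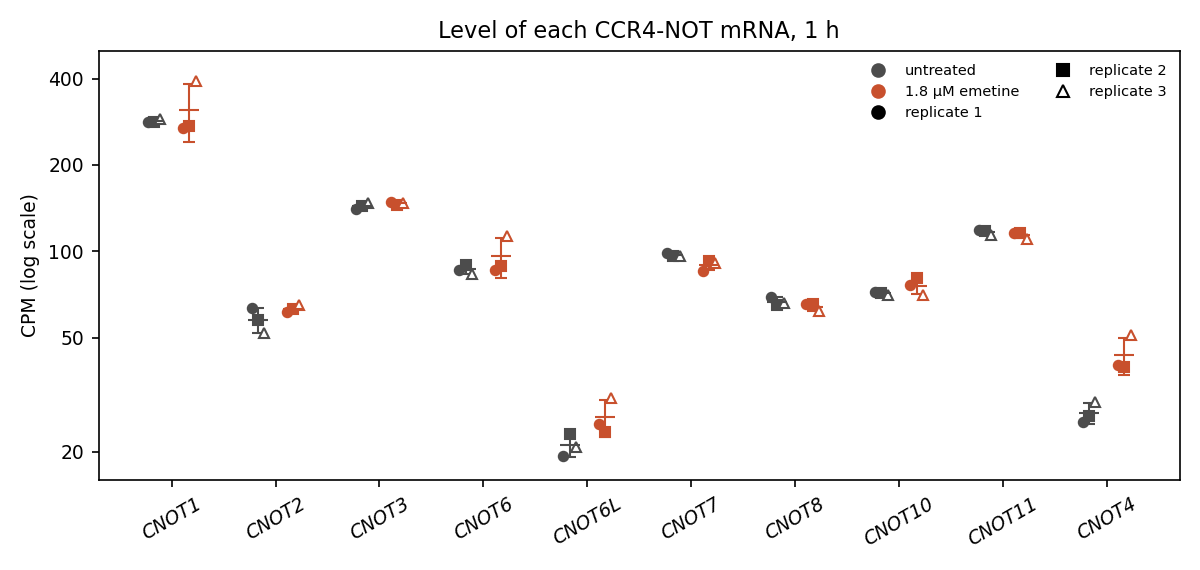
Level (CPM, log axis) of each of the 10 genes in the 3 untreated (grey) and 3 emetine (orange) libraries with s4U. Points are libraries, horizontal marks are means and bars are SD. CNOT4 lies between 25.3 and 29.8 CPM in untreated cells and between 39.6 and 51.0 CPM with emetine, and the open triangle of emetine replicate 3 is high for CNOT1, CNOT6, CNOT6L and CNOT4.

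The libraries without s4U, 1 per treatment, allowed the level of each member to be read without labeling. CNOT4 had 751 reads or 31.9 CPM in the untreated library (exact Poisson 95% interval 29.6 to 34.2) and 1446 reads or 45.5 CPM in the emetine library (43.2 to 47.9), a ratio of 1.43. These intervals cover counting error only, and the ratio has no replicate check. The ratios of the other 9 members lay between 0.903 (CNOT7) and 1.20 (CNOT2). CNOT6L, higher with emetine in the labeled cells, had a ratio of 0.908 here. In the fit over all 8 libraries, the test of whether the change with emetine depended on s4U called 0 of 10 members and 0.0% of all genes (edgeR). At an unadjusted p under 0.05 it called 0 of 10 members, beside 3.61% of all genes higher and 0.624% lower, and DESeq2 called 6 genes of 14102 and no member. The interaction of CNOT4 was 0.16 (SE 0.251) and that of CNOT6L 0.47 (SE 0.264) on the log2 scale. Without emetine replicate 3, the test of the interaction called 177 genes higher and 0 lower (edgeR), none of them a member. The addition of s4U itself was called for no member (0 of 10 by edgeR, also at an unadjusted p under 0.05, and 0 of 10 by DESeq2), with log2 differences from -0.15 (CNOT4) to 0.11 (CNOT1). Over all genes, 0.0% were called by edgeR, 1.26% were higher and 3.51% lower at an unadjusted p under 0.05, and DESeq2 called 7 higher and 18 lower. Without emetine replicate 3, edgeR called 8 genes higher and 33 lower with s4U at an adjusted p under 0.05, none of them a member. In that fit 1 member had an unadjusted p under 0.05. The share of all genes at that unadjusted threshold was not counted, so this is not read as a result about the members.

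The other factors of deadenylation and decay were measured in the same libraries, from lists of genes chosen for their role. CNOT9, a further core subunit listed under its older symbol RQCD1, had a log2 fold change of -0.04 (SE 0.0791) and a change in the logit of the fraction new of -0.23 (SE 0.209). TNKS1BP1, a protein that binds the complex, had a log2 fold change of -0.01 (SE 0.110) and a change in the logit of -0.49 (SE 0.211, adjusted p = 0.192). Of 8 other deadenylase genes, 0 were called in level and 1 was called lower in fraction new, against 4.83% of all genes. This was PAN3, the adaptor of the PAN2 nuclease, whose fraction new was 17.5%, 26.5% and 31.3% in untreated cells and 14.3%, 15.5% and 11.1% with emetine (change in the logit -0.73, SE 0.214, adjusted p = 0.0262). Over the 8 genes the change in level had a median of 0.31 on the log2 scale, and 5 of them were higher at an unadjusted p under 0.05, against 14.9% of all genes. Without emetine replicate 3 the median was 0.22, 7 of 8 lay above 0, and 2 of 8 (TOE1 at 0.44 and NOCT at 0.40 on the log2 scale) were called higher, against 10.1% of all genes in that fit. PAN2 had a log2 fold change of 0.22 (SE 0.0903) and PARN of 0.09 (SE 0.0898).

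Of 13 genes of decapping and 5′ to 3′ decay, 0 were called in level or in fraction new. At an unadjusted p under 0.05, 1 was higher and 1 lower in level, against 14.9% and 6.95% of all genes, and 0 differed in fraction new, against 15.4% lower and 1.15% higher. The helicase DDX6, which binds CNOT1, had a log2 fold change of 0.17 (SE 0.134), the decapping enzyme DCP2 of 0.12 (SE 0.104) and the exonuclease XRN1 of 0.50 (SE 0.202, adjusted p = 0.207). The value of XRN1 rested in part on emetine replicate 3, where it measured 32.9 CPM against 20.1 and 19.3 CPM in the other emetine libraries. Of 25 recruiters and adaptors that entered the test of level, 1 was called higher, against 2.64% of all genes. This was BTG1, a protein that binds CNOT7 and CNOT8, with 54.1, 53.2 and 57.5 CPM in untreated cells and 82.9, 79.7 and 75.8 CPM with emetine (log2 fold change 0.53, SE 0.0840, adjusted p = 0.0163). The fraction new of BTG1 changed by -0.05 in the logit (SE 0.235).

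Of 21 recruiters tested for the fraction new, 2 were called lower, against 4.83% of all genes, and 5 were lower at an unadjusted p under 0.05, against 15.4%. TOB2, which also binds the CNOT7 and CNOT8 nucleases, fell from 65.5%, 74.9% and 77.7% to 46.9%, 49.7% and 51.8% (change in the logit -1.02, SE 0.249, adjusted p = 0.00572). ZFP36L2, which brings the complex to AU-rich elements, fell from 80.1%, 90.3% and 89.2% to 70.6%, 74.5% and 72.4% (-0.94, SE 0.275, adjusted p = 0.0267). Both had higher fractions new than any member in untreated cells. The levels of TOB2 and ZFP36L2 had log2 fold changes of 0.13 (SE 0.127) and 0.05 (SE 0.122). Of 2 genes of cytoplasmic poly(A)-binding proteins, 0 were called in level or fraction new, and at an unadjusted p under 0.05 1 was lower in level and 0 differed in fraction new. Without emetine replicate 3, DCP1B of the decapping genes was also called higher in level (log2 fold change 0.29, adjusted p = 0.0370, edgeR), and PABPC1 was called lower (-0.24, adjusted p = 0.0268). These genes, with TOE1 and NOCT, were named after their values were seen.

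**Figure D4:**
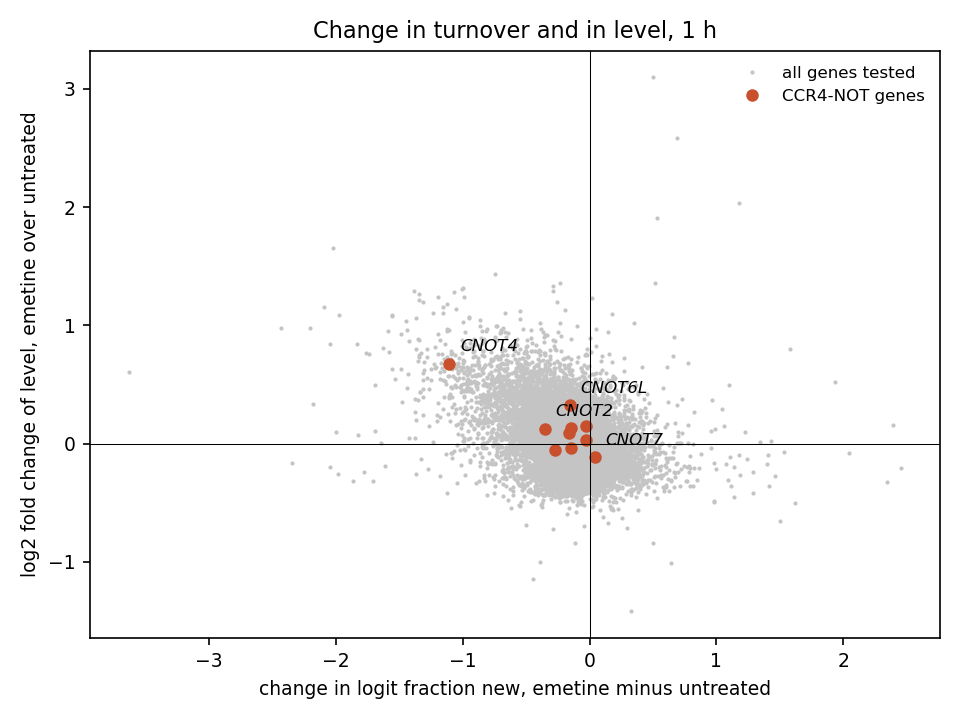
Change in the logit of the fraction new (horizontal axis) and log2 fold change of level (vertical axis), emetine against untreated, for the genes tested in both (grey) and the 10 CCR4-NOT genes (orange). CNOT4 lies at -1.10 and 0.68, and the other 9 lie between -0.35 and 0.04 and between -0.11 and 0.33.

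The genes outside the family whose fractions new over the 6 libraries lay nearest to the members' median were sought among 10753 genes by Euclidean distance of the logit. They were GOSR2 (distance 0.0289), TRMT1 (0.110) and AGAP3 (0.110). GOSR2 had fractions new of 9.94%, 13.0% and 15.4% in untreated cells and of 11.9%, 12.3% and 11.1% with emetine.

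The share of reads that cross a splice junction depends on where in the mRNA the reads lie and on how much sequence they cover. The share did not tell these apart. It was highest in CNOT3 (74.7% ± 5.58 in untreated cells, SD, n = 3) and CNOT10 (72.7% ± 7.14), and lowest in CNOT6 (8.85% ± 1.20) and CNOT6L (4.77% ± 1.27). In CNOT4 it was 21.2%, 25.6% and 19.8% in untreated cells and 17.3%, 22.4% and 30.9% with emetine. Emetine replicate 3 had the highest share of all 8 libraries for 7 of the 10 members, among them CNOT2 (53.4%), CNOT11 (39.6%) and CNOT4 (30.9%). The exceptions were CNOT1, CNOT3 and CNOT10, highest in untreated replicate 2. In that library the reads of these genes held 50.7, 30.7 and 45.8 T positions on average, the most of any library. The reads of every other member also held the most T positions there, among them CNOT2 (51.4) and CNOT4 (48.4). The T positions therefore do not set the exceptions apart. The count of highest junction shares was not made over all genes, so it is not read as a trait of the members.

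In the 2 h experiment the authors' mean of normalized counts over all 9 libraries placed the members differently. CNOT1 had the highest mean, 15461, at percentile 99.3 of 9982 genes. CNOT6 followed with 4714 and CNOT7 with 2840. CNOT3 was the lowest of the members with 772, whereas in the 1 h libraries it ranked 2 of 10 by CPM. CNOT3 thus stood at 4.99% of CNOT1 in the 2 h mean and at 50.5% of CNOT1 in untreated cells at 1 h. CNOT6L, the lowest by CPM at 1 h, ranked 4 of 10 with a mean of 2205. CNOT4 had a mean of 1515, or 9.80% of CNOT1, close to its 9.56% at 1 h. The 2 h libraries were made with a total RNA kit and the 1 h libraries with an mRNA kit, and the 2 h mean also includes both emetine doses, so that kit, time and treatment cannot be told apart in this comparison. The mean carries no error, and no change with emetine at 2 h was read from it.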

How the data were processed

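TL-seq reads of 8 libraries (1 h) were analyzed per gene. The authors removed adapters with cutadapt, mapped reads to hg38 with hisat-3n, sorted them with SAMtools and tallied the conversions with bam2bakR. Unnormalized read counts were deposited, per library, gene and number of T positions and conversions. For 2 h, the signal used was the authors' mean of counts divided by spike-in size factors, as deposited. Their fold changes and p-values of each dose and their table of size factors were not used.

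Counts were summed per gene and compared with edgeR 4.0.16 (R 4.3.3, TMM, quasi-likelihood test) where a gene had more than 100 reads in total. The fraction new was the weight of a 2-component binomial mixture, fitted by maximum likelihood (Python 3.11.15 with scipy 1.17.1, numpy 2.4.6 and pandas 2.3.3), with the background rate taken from the library without s4U of the same treatment. Its logit, bounded at 0.001 and 0.999, was compared with limma 3.58.1 (trend, robust) over the 10763 genes that reached 100 reads in every library. It stands in for the bakR score of the study. Labeled and unlabeled CPM were compared on log2(CPM + 0.5), which understates changes of low genes. P-values were adjusted by Benjamini-Hochberg over all genes tested, with a threshold of 0.05. Half-lives are -ln(2) × 60 min / ln(1 - fraction new). Lengths and coordinates are from GENCODE 44 (GRCh38), in which 17147 genes were found under their symbol and 1166 under an older one. No molecular identifiers are described, so counting errors cover reads only.

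The members and lists were chosen with earlier results of these data known. Named genes are all members, PAN2, PAN3, PARN, XRN1, DCP2 and DDX6, any list gene called in level or fraction new, the 3 genes nearest to the members' median, and CNOT9 and the cell markers, which were added. In simulated data, 87.3% of 197 genes among 13692 with a log2 change of 1 were recovered in level (8.51% of calls false), and 98.0% of 200 among 3000 with a logit change of 1 in fraction new (5.77% false). The simulated fractions new held no shift shared by a whole library. Their shares therefore do not cover the differences between library medians seen here. DESeq2 1.42.0, other scalings, filters, trend removal (mgcv 1.9.3), the replicate number as a block and leaving out each library were alternatives. Leaving out each library in the test of emetine by s4U was added after the data were seen. Figures were drawn with matplotlib 3.10.9.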

Additional observations from a re-analysis of the deposited data

How the results depend on the processing

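Limits: 3 libraries a group, 1 of them apart, set the precision, and for CNOT4 and CNOT6L the number of reads adds to it. The fall of CNOT4 in fraction new and its rise in unlabeled reads passed under all alternatives tried. Its rise in level kept its direction but was not called with spike-in scaling (1.375, adjusted p = 0.139), which moved the median of all genes by 0.68, with the replicate block (0.67, adjusted p = 0.0510), or without single libraries. For genes higher and lower in level (363 and 6), DESeq2 called 820 and 156, spike-in scaling 60 and 0, removal of the length and GC trend 746 and 685, the replicate block 75 and 3, and the block with trend removal 340 lower. Members called higher were then 0 with spike-in scaling and 0 with the replicate block. With the trend removed, 1 member (CNOT7) was called lower in level and 1 in unlabeled reads. For genes lower and higher in fraction new (520 and 23), a minimum of 50 reads gave 298 and 14, a minimum of 500 reads 227 and 14. Higher calls were 126 with each library centered on its median, 187 with the trend removed, 40 with the replicate block and 48 with the block and centering. Genes higher in unlabeled reads (786) were 1205 with the trend removed and 350 with the replicate block, and lower (10) 1667 with the trend removed. Genes higher and lower in labeled reads (28 and 68) were 274 and 276 with the trend removed.

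Leaving out 1 library at a time, genes higher in level ranged from 4 to 1367 (the latter without emetine replicate 3) and lower from 0 to 525, genes lower in fraction new from 94 to 2524 (without untreated replicates 3 and 1) and higher from 10 to 41, genes higher in unlabeled reads from 271 to 1474 and lower from 4 to 383 (the latter without emetine replicate 3), and genes higher in labeled reads from 13 to 64 and lower from 2 to 1733 (64 and 1733 without untreated replicate 1). Members called higher in level ranged from 0 to 1, lower in fraction new from 1 to 2, and lower in labeled reads from 0 to 1. Each of these fits had 1 library fewer, and the causes of the differences between them were not tested. Same-numbered libraries did not deviate together (correlations of 0.0892, 0.00707 and -0.137 in level and 0.0560, 0.00251 and 0.0221 in fraction new). With 3 libraries a group, this cannot decide whether the numbers pair the samples. Reads of CNOT1 held 44.1, 50.7 and 40.5 T positions on average in untreated replicates 1 to 3. With emetine they held 38.3, 46.6 and 37.6, again most in replicate 2. Apart from CNOT4 in level, the block changed no other call of a member.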
